A study of Mus musculus with 6 samples.

Results

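Rosette-stage mouse embryonic stem cells with the most Lefty1 and Lefty2 RNA were compared with cells of the same cultures that had the least. Of 376 wells of the rosette_LIM culture, 319 held 10000 or more counts from genes (172 of the line R1, 147 of the line IB10), and these cells were ranked within their own library by the share of their counts that came from Lefty1 and Lefty2 together. Each ranking was cut into 3 equal groups, or terciles, and the upper tercile (107 cells, called Lefty-high) was set against the lower tercile (106 cells, called Lefty-low), which makes 213 of the 1128 wells of the whole series. The middle tercile held the other 106 cells. Since the 2 Lefty genes chose the cells, their own difference between the terciles is a description and carries no test.

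Nodal is a secreted ligand of the TGF-beta family that signals through Activin receptors and the co-receptor Cripto (Tdgf1) to SMAD2 and SMAD3, which act with the DNA-binding partner FOXH1. Lefty1 and Lefty2 are secreted inhibitors of Nodal and are themselves induced by Nodal signalling, so that their RNA is widely used as a readout of the pathway and as an example of negative feedback. In the early mouse embryo the pathway acts in the epiblast, and in embryonic stem cells Lefty1 and Lefty2 are known to vary from cell to cell.

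The lines R1 and IB10 are long-established and of mouse embryonic stem cell origin. They were grown in serum-free N2B27 medium with LIF, with 1 library per line and culture. Rosette_LIM cells had 2 µM IWP2, which blocks the secretion of WNT proteins, and 0.1 µM PD325901, a MEK inhibitor, for 6 passages in R1 (passage 28) and 5 passages in IB10 (passage 33). Primed_4d cells had 12 ng/ml FGF2, 20 ng/ml human Activin A (a ligand that acts on the same SMADs as Nodal) and 2 µM IWP2 for 4 days, and LIF_2i cells had 3 µM CHIR99021, a GSK3 inhibitor, and 0.1 µM PD325901, each at passage 24 in R1 and 28 in IB10. Transcripts were counted at their 3′ ends with molecular identifiers after sorting into plates (SORT-seq). No Nodal or Activin was added to the rosette_LIM culture, and all its cells had the MEK inhibitor.

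The counts of the cells of a tercile were summed within each library, which gave profiles of 1649231 to 1986477 counts. Depth was similar between the terciles in R1, with a median cell of 33183 counts among Lefty-high and 34004 among Lefty-low cells. In IB10 the median was lower in Lefty-high cells, at 31438 counts against 38590 in Lefty-low cells. The mitochondrial share went opposite ways in the lines, at 8.76% in Lefty-high and 9.62% in Lefty-low cells of R1, and 11.3% and 10.8% in IB10. The label was checked against marker genes. The core pluripotency genes summed to between 4835 and 5126 CPM (CPM being counts scaled by the total of the profile) and the naive pluripotency genes to between 7421 and 8341 CPM in the Lefty-high and Lefty-low profiles. Of 37 markers of 6 other states (trophectoderm, mesendoderm, neuroectoderm, primitive endoderm, 2-cell-like cells and feeder fibroblasts), 8 had no count in any of these profiles and 15 were frequent enough to test.

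The spread of Lefty RNA among rosette_LIM cells was wide. The median Lefty-high cell had a share of 345 CPM in R1 and 273 in IB10, against 18.98 in R1 and 0 in IB10 for the median Lefty-low cell. No count of either gene was found in 25 R1 cells (14.5%) and 34 IB10 cells (23.1%). The 18 R1 and 15 IB10 cells with the most Lefty counts held 58.5% of all Lefty counts in R1 and 54.8% in IB10. The highest share of a single cell was 3509 CPM in R1 and 3037 CPM in IB10. At the limits of the groups, the lowest Lefty-high cell had 150.4 CPM in R1 and 131.2 in IB10, beside 147.3 and 130.1 for the highest middle cell. The highest Lefty-low cell had 44.3 CPM in R1 and 25.5 in IB10, beside 44.6 and 25.8 for the lowest middle cell. The shares thus lay close together on both sides of each limit. At the lower limit they rested on very few counts. In IB10 the cells nearest this limit each held 1 Lefty count, out of 39246 (Lefty-low) and 38741 counts (middle). In R1 they held 1 of 22578 (Lefty-low) and 2 of 44888 counts (middle). Depth thus helped to place cells with so few counts. At or above the median share of the same line's primed_4d cells (859 CPM in R1, 668 in IB10) were 9 rosette_LIM cells of R1 (5.23%) and 8 of IB10 (5.44%).

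**Figure D1:**
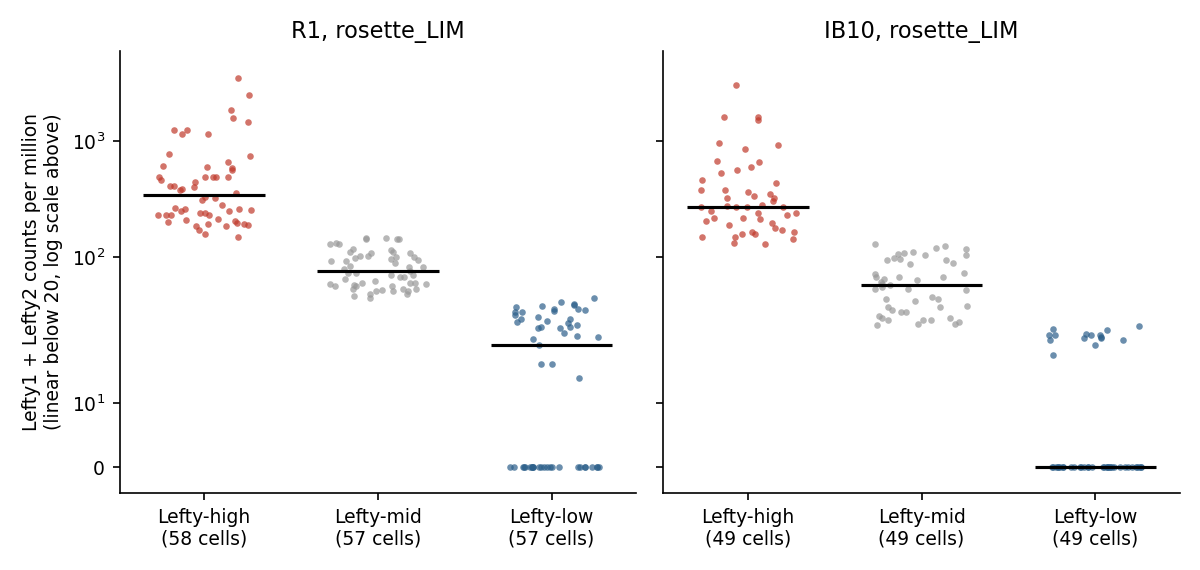
Lefty1 plus Lefty2 level (CPM) in each rosette_LIM cell, by tercile and line; each point is a cell and the bar is the median of the tercile. The axis is linear below 20 and logarithmic above. Lefty-high cells begin at 150.4 CPM in R1 and 131.2 in IB10, and 25 R1 and 34 IB10 cells lie at 0.

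Both genes contributed to the split. Lefty-high cells held 449 CPM of Lefty1 and 115 CPM of Lefty2 in R1 and 312 and 119 in IB10, while Lefty-low cells held 7.04 and 10.6 in R1 and 1.14 and 7.38 in IB10. In Lefty-high cells Lefty1 was the more abundant of the 2 genes, and in Lefty-low cells Lefty2 was. Across single cells the shares of the 2 genes had a Pearson correlation of 0.394 over 172 R1 cells and 0.648 over 147 IB10 cells. By rank (Spearman) the correlation was lower, at 0.355 in R1 and 0.445 in IB10. These values describe cells that share a library and differ in depth. The transcripts of the 2 genes are alike in part: over their whole length they shared a run of 140 bases, and 233 stretches of 60 bases (the read length) in Lefty1 also stood in Lefty2. Their 3′ ends, which the method counts, differed. The longest run that the last 400 bases of Lefty1 shared with the Lefty2 transcript was 13 bases, and in the other direction 8 bases. Where the reads fell within the transcripts was not measured here.

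Choosing the cells by 1 Lefty gene left the other as an independent readout. Many cells had no count of the gene used, and cells tied at the lower limit were kept together. The upper and lower groups therefore held 58 and 57 cells of R1 and 49 and 64 of IB10 in the Lefty1 split, and 58 and 62 of R1 and 49 and 61 of IB10 in the Lefty2 split. With cells split by Lefty1 alone, Lefty2 was at 88.5 (R1) and 94.2 CPM (IB10) in the upper group, against 28.8 and 18.97 CPM in the lower group. That was a log2 difference of 1.95 ± 0.17 (SE; edgeR adjusted p = 1.04e-09), and it was seen in both lines. With cells split by Lefty2 alone, Lefty1 was at 363 and 258 CPM in the upper group, against 69.1 and 53.8 CPM in the lower group (log2 2.34 ± 0.12; edgeR adjusted p = 5.67e-19). The upper and lower groups did not overlap for either gene, and both differences passed the threshold with DESeq2 and without the line as a block. Beyond the Lefty genes, 12 of 9957 genes (0.121%) were called in the Lefty1 split and 11 of 9902 (0.111%) in the Lefty2 split. Cells chosen by either inhibitor gene thus held more RNA of the other, in each line.

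Across all other genes, few differed between Lefty-high and Lefty-low cells. In edgeR's quasi-likelihood test with the line as a block, 38 of 9800 tested genes (0.388%) passed an adjusted p of 0.05, of which 22 were higher in Lefty-high cells (0.224%) and 16 were lower (0.163%). The genes that rose included Nodal itself and its co-receptor Tdgf1, while the naive pluripotency factor Tfcp2l1 and the kinase Sgk1 were among those that fell. All 38 had the same direction in both lines. They were called from a fit to these same lines, so a shared direction is no separate support. The share of all tested genes with the same direction in both lines was not taken. Of the 38, 7 differed by 2-fold or more. The Lefty-high and Lefty-low profiles did not overlap for 27 of the 38, and for 28.5% of all tested genes. The middle tercile lay between the others in both lines for 19 of the 38 genes. With terciles taken among cells of like depth, 16 genes were higher and 18 lower. The call rests on a small spread: with DESeq2 no gene passed (63 at an unadjusted p under 0.05), nor did any in edgeR without the line as a block (205 at an unadjusted p under 0.05), while limma-voom called 20 genes higher and 21 lower. Both terciles come from the same 2 libraries, and the labels name no separate cultures of a line. The p-values therefore cover only the spread between these profiles.

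**Figure D2:**
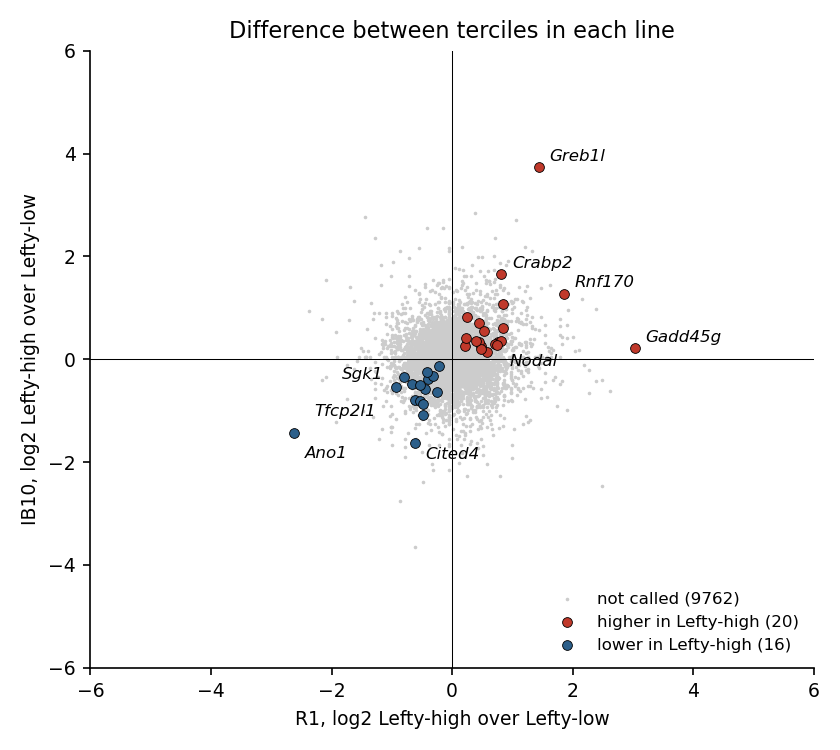
Log2 difference of Lefty-high over Lefty-low cells in R1 (horizontal axis) and IB10 (vertical axis) for 9798 of the genes tested; red points are 20 genes called higher, blue points the 16 called lower, and grey points the genes not called. All coloured points lie to the upper right or the lower left of 0, with Greb1l highest on the IB10 axis and Gadd45g farthest right on the R1 axis. The coloured genes were called from a fit to both lines, so their shared direction is no separate support.

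Promoters are given for the Nodal ligand, its co-receptor Tdgf1, the collagen chaperone Serpinh1 and the naive factor Tfcp2l1, which are called genes of the 2 directions that have an entry in the RefSeq promoter table (GRCm38.p6). Each is the 250 bases before the start of transcription, 5′ to 3′ on the gene's strand, at chr10:61417722-61417971 (plus strand), chr9:110946159-110946408 (minus strand), chr7:99353240-99353489 (minus strand) and chr1:118627695-118627944 (plus strand). Capitals mark matches to the SMAD motif CAGACA or its reverse complement TGTCTG.
Nodal: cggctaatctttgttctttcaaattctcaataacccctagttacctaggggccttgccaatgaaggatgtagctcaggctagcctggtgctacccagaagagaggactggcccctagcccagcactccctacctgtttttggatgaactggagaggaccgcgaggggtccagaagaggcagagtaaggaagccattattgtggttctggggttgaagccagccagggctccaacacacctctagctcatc
Tdgf1: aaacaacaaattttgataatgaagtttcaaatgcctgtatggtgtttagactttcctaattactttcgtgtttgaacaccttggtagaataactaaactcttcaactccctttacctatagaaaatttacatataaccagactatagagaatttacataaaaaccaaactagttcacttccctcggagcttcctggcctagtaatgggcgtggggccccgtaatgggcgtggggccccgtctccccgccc
Serpinh1: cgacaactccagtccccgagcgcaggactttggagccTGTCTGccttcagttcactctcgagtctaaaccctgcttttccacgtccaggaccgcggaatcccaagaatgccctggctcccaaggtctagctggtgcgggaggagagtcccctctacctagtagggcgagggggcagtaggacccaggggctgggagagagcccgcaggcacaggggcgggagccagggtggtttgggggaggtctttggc
Tfcp2l1: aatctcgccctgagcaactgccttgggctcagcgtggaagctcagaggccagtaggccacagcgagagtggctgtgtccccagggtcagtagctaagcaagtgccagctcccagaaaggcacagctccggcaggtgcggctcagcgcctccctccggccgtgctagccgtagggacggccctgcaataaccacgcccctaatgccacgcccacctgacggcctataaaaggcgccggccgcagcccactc

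Only the Serpinh1 window of these 4 held the SMAD motif, at 213 bases before the start. Of the 38 called genes, 24 had an entry that was used, with 34 windows in all. Windows on chromosome 18, where Greb1l is the 1 called gene, were left out of these. The SMAD motif was found in 7 of the 34 windows (20.6%), each of another gene, and in 17.1% of all 32851 windows in the table, a share close to it. The FOXH1 motif AATCCACA, searched on both strands as TGTGGATT too, was found in 0 of the 34 windows and in 0.718% of all windows. The FOXH1 motif ends in the CA with which the SMAD motif begins, so that matches can share these bases, and a match is a description of the sequence and not of binding. Nothing follows for the factors from windows of this length.

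Nodal (chr10:61417972-61425338), the ligand, was at 115 (R1) and 64.9 CPM (IB10) in Lefty-high cells, against 68.1 and 53.7 CPM in Lefty-low cells. It was higher in Lefty-high cells of both lines, but the IB10 Lefty-high value was under the R1 Lefty-low value, so the groups overlapped across lines. The log2 difference was 0.56 ± 0.14 (SE; edgeR adjusted p = 0.0415), at 0.75 in R1 and 0.27 in IB10. Tdgf1, the co-receptor Cripto, was at 327 and 409 CPM in Lefty-high cells, against 250 and 318 CPM in Lefty-low cells. Its difference was nearly the same in both lines (log2 0.37 ± 0.08, SE; edgeR adjusted p = 0.00591). Of 21 other treatments of the data, Nodal was called in 10 and Tdgf1 in 12. Among the 21, leaving out wells over 3 times the median depth removed no rosette_LIM cell, so it repeats the main fit.

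Within the Nodal pathway, the ligand and its co-receptor rose. Of the 30 tested list members described here besides the Lefty genes, 2 rose (Nodal and Tdgf1), 0 fell and 28 did not pass, beside 0.388% called over all genes. The median log2 difference over the 30 was −0.00, as for all genes tested. Among receptors, Tgfbr1 and Acvr2b had log2 differences of 0.33 ± 0.24 and 0.30 ± 0.22 (SE). Among inhibitors, Pmepa1, which binds SMADs, was at 0.28 ± 0.16. Among SMADs and their partners, the co-repressors Ski and Skil were at 0.40 ± 0.12 and 0.30 ± 0.20, and none of these values passed the test (edgeR adjusted p from 0.210 to 0.818). Smad2, Smad3, Smad4, Smad7, Trim33, Drap1, Tgif1, Tgif2 and Eomes did not pass either, and nor did Gdf3, Inhbb, Furin, Pcsk6, Acvr2a, Fst, Nomo1, Bambi, Dact2, Gsc, Ltbp1, Dnmt3b and Bcor. Nanog, listed as a target, was at 22.8 and 14.9 CPM in Lefty-high cells, against 35.3 and 25.4 CPM in Lefty-low cells. That was a log2 difference of −0.69 ± 0.24 (SE; edgeR adjusted p = 0.317), lower in both lines without passing the test.

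**Figure D3:**
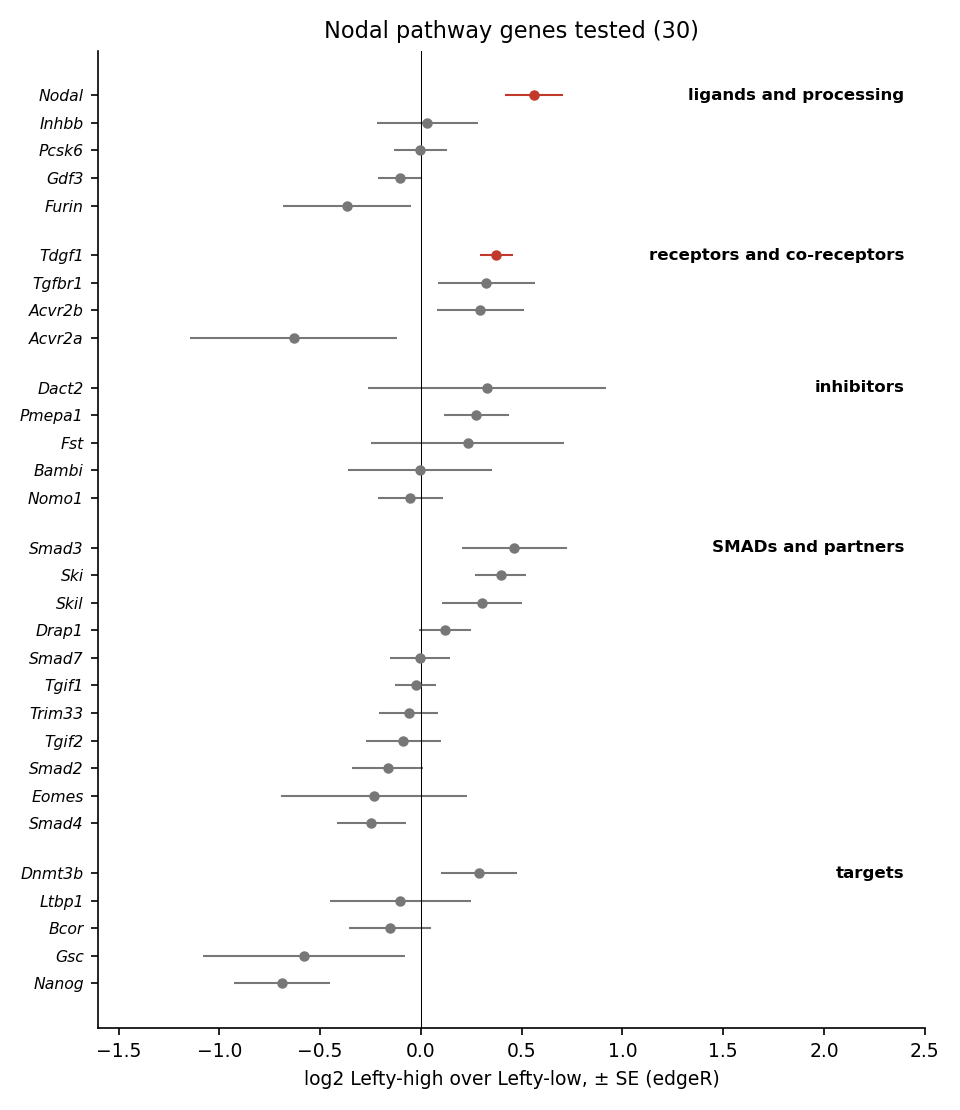
Log2 difference of Lefty-high over Lefty-low rosette_LIM cells for 30 tested genes of the Nodal lists, grouped by role, with the standard error as bars; coloured points passed the test and grey points did not. The 2 coloured points, Nodal and Tdgf1, lie to the right of 0.

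The Lefty genes lie close together on the same strand of chromosome 1 (GRCm38). Lefty2 spans chr1:180893108-180899103 and Lefty1 chr1:180935022-180938400, with 35918 bases between them. On the outer sides of the pair, Sde2 and H3f3a before Lefty2 had log2 differences of 0.08 ± 0.13 and 0.09 ± 0.06 (SE), and Tmem63a and Ephx1 after Lefty1 had 1.37 ± 0.56 and 0.54 ± 0.36, of which none passed the test (edgeR adjusted p from 0.496 to 0.951). Tmem63a rested on few counts, at 6.93 and 8.92 CPM in Lefty-high and 3.58 and 2.31 CPM in Lefty-low cells. All genes of chromosome 1 together took 1.00 times the share in Lefty-high cells that they took in Lefty-low cells of R1, and 0.989 times in IB10.

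Several other genes that rose in Lefty-high cells did so by different amounts in the lines. Crabp2, which binds retinoic acid in the cytoplasm, was at 38.1 and 51.8 CPM in Lefty-high cells, against 21.5 and 16.2 CPM in Lefty-low cells (log2 1.22 ± 0.23, SE; edgeR adjusted p = 0.000291). Greb1l was at 7.42 and 11.3 CPM, against 2.56 and 0.577 CPM in Lefty-low cells, on 34 counts and 6 counts in all. Gadd45g, a growth arrest gene, was at 43.7 and 15.5 CPM in Lefty-high cells, against 5.12 and 13.3 CPM in Lefty-low cells. A single R1 cell gave 40.4% of the Lefty-high counts of Gadd45g. The log2 difference was 3.03 in R1 (2.00 without that cell, with all Lefty-low cells kept) and 0.22 in IB10. For Greb1l and Gadd45g the edgeR adjusted p was 0.0364 and 0.000646.

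Serpinh1, the collagen chaperone, was at 54.5 and 54.8 CPM in Lefty-high cells, against 30.2 and 35.8 CPM in Lefty-low cells (log2 0.73; edgeR adjusted p = 0.0343). Marcks, a substrate of protein kinase C that binds actin, was at 151 and 136 CPM, against 86.0 and 106 CPM in Lefty-low cells (log2 0.59; edgeR adjusted p = 0.00151). Both genes were higher in each Lefty-high profile than in either Lefty-low profile. Mest, an imprinted gene expressed from the paternal allele, had a log2 difference of 0.55, 2210404O09Rik, annotated as the zinc finger gene Zfp995, had 0.97, and Txnip, an inhibitor of thioredoxin, had 0.54. Ubr7 (0.51) and the growth factor gene Mdk (0.31) rose too. Within the DNA methylation genes, 2 of 11 tested rose and 0 fell, beside 0.224% called higher over all genes. Gadd45g was one and Dnmt3a, a de novo DNA methyltransferase that also stands in the formative and primed list, was the other, at 139 and 152 CPM in Lefty-high cells against 84.5 and 123 CPM in Lefty-low cells (log2 0.51 ± 0.12, SE; edgeR adjusted p = 0.0133).

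Rnf170, a ubiquitin ligase of the endoplasmic reticulum, and Cd97, an adhesion receptor, lie on chromosome 8, and all genes of that chromosome took 5.58% of counts in Lefty-high and 5.20% in Lefty-low cells of R1, and 4.47% and 4.34% in IB10. Rnf170 was at 24.7 and 21.4 CPM in Lefty-high cells, against 6.65 and 8.66 CPM in Lefty-low cells (log2 1.60 ± 0.33, SE; edgeR adjusted p = 0.00173). Cd97 was at 122 and 59.5 CPM, against 71.7 and 46.8 CPM in Lefty-low cells (log2 0.61; edgeR adjusted p = 0.0155). With terciles taken among cells of like chromosome 8 share, Rnf170 had a log2 difference of 1.13 (edgeR adjusted p = 0.0428) and Cd97 0.46 (edgeR adjusted p = 0.151), so that Cd97 no longer passed.

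A group of 5 transcripts, most of them noncoding in the annotation, rose by small amounts. Malat1, a nuclear noncoding RNA, was at 617 and 565 CPM in Lefty-high cells, against 443 and 489 CPM in Lefty-low cells (log2 0.35). Kcnq1ot1, a noncoding antisense RNA of an imprinted domain, had a log2 difference of 0.24, and Gm17821 (annotated as a processed pseudogene), A630089N07Rik (on chromosome 16) and Gm10785 (annotated as antisense, also on chromosome 16) had 0.40, 0.37 and 0.40. Of these, Gm17821 and A630089N07Rik had edgeR adjusted p-values of 6.9e-07 and 0.000107. Levels of Gm17821 were 1406 and 959 CPM in Lefty-high cells, against 1036 and 755 CPM in Lefty-low cells.

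Among the genes that fell in Lefty-high cells, Sgk1, a serum- and glucocorticoid-regulated kinase, had the smallest p of all genes. It was at 203 and 231 CPM in Lefty-high cells, against 387 and 335 CPM in Lefty-low cells (log2 −0.74 ± 0.09, SE; edgeR adjusted p = 1.92e-09). Tfcp2l1, a transcription factor of naive pluripotency, was at 175 and 142 CPM in Lefty-high cells, against 246 and 259 CPM in Lefty-low cells (log2 −0.67 ± 0.10, SE; edgeR adjusted p = 6.9e-07). Both genes were lower in each Lefty-high profile than in either Lefty-low profile. They were called in 18 and 16 of the 21 other treatments of the data, of which 1 repeats the main fit as given above.

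**Figure D4:**
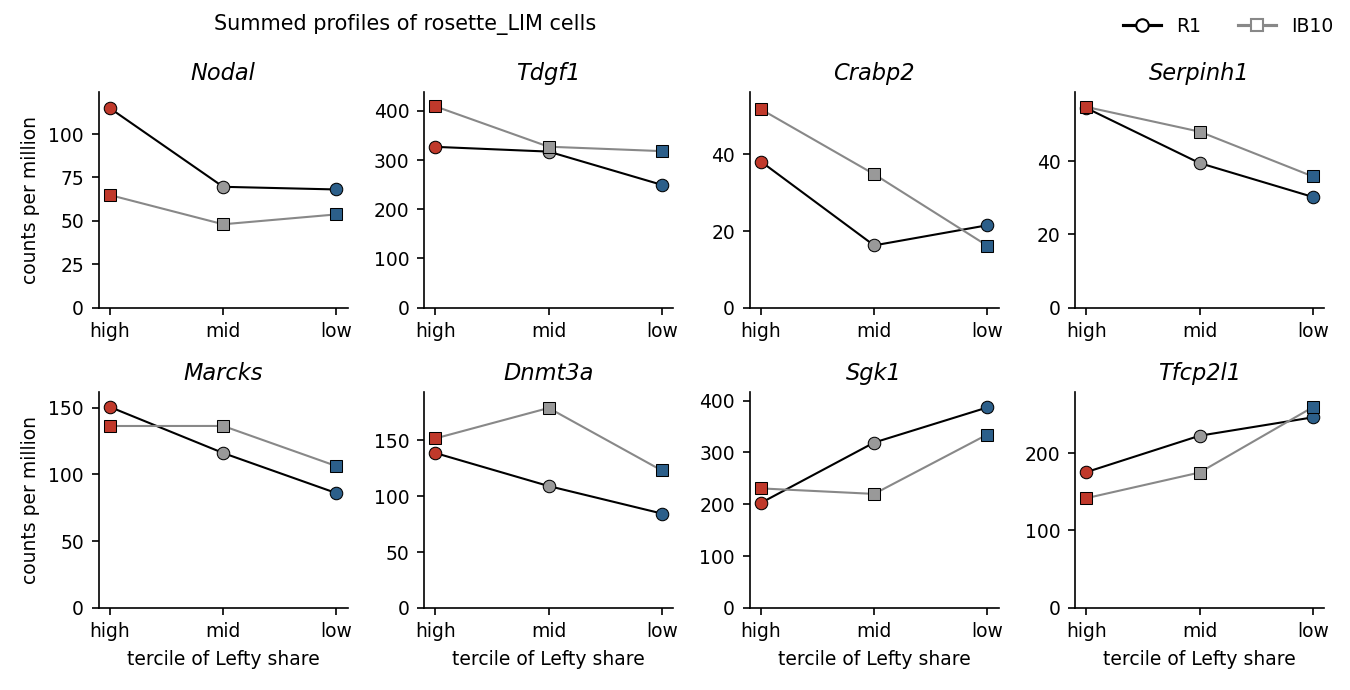
CPM of 8 called genes in the summed profiles of the Lefty-high, middle and Lefty-low terciles of R1 (circles) and IB10 (squares); each axis starts at 0. Serpinh1 is at 54.5 and 54.8 CPM in the Lefty-high profiles and 30.2 and 35.8 CPM in the Lefty-low ones, and Sgk1 and Tfcp2l1 run the other way.

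Tfcp2l1 was the single naive pluripotency gene of 21 tested that passed the test. None rose, 18 of the 21 had negative log2 differences, and the median was −0.10, beside −0.00 over all genes tested, of which 5013 of 9800 were negative. Esrrb, another naive factor, was at 316 and 357 CPM in Lefty-high cells, against 351 and 448 CPM in Lefty-low cells (log2 −0.24 ± 0.08, SE; edgeR adjusted p = 0.236). Manba, an enzyme of the lysosome in the naive list, went the other way at log2 0.91 ± 0.25 (edgeR adjusted p = 0.0875). In the formative and primed list Dnmt3a was the call among 20 tested genes. Otx2, a transcription factor of the formative state, was at 13.9 and 26.2 CPM, against 9.21 and 10.97 CPM in Lefty-low cells (log2 0.96 ± 0.33; edgeR adjusted p = 0.317), and Foxd3 was at log2 −0.66 ± 0.17 (edgeR adjusted p = 0.0548). Of 12 core pluripotency genes tested, Tdgf1 was the 1 that passed.

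The other falls were of mixed function. Ano1, a calcium-activated chloride channel, was at 2.97 and 2.38 CPM in Lefty-high cells, against 19.5 and 6.93 CPM in Lefty-low cells (log2 −2.28 ± 0.50, SE; edgeR adjusted p = 0.00644). Cited4, a binding partner of CBP and p300, had a log2 difference of −1.34 (edgeR adjusted p = 0.00956), but a single IB10 cell gave 55.3% of its Lefty-low counts. Without that cell, and with all Lefty-high cells kept, the difference of Cited4 in IB10 was −0.03. Rnf7, a subunit of cullin ubiquitin ligases, was at 245 and 255 CPM, against 355 and 359 CPM in Lefty-low cells (log2 −0.51; edgeR adjusted p = 7.67e-06). Eif2s2, a subunit of the translation initiation factor eIF2, was at 1891 and 1772 CPM, against 2343 and 2214 CPM in Lefty-low cells (log2 −0.32; edgeR adjusted p = 5.27e-06). These last 2 genes were well counted and had close values in both lines.

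The log2 differences were −0.83 for Tbc1d13 (a GTPase-activating protein for Rab35), −0.72 for Epb4.9 (dematin, which bundles actin), −0.66 for Slc28a1 (a nucleoside transporter) and −0.57 for Ninl (a centrosomal protein). They were −0.57 for Nfatc2ip, −0.52 for E130012A19Rik (annotated as Epop), −0.39 for Bcat1 (a branched-chain aminotransferase) and −0.33 for Prdx6 (a peroxiredoxin). Lars2, the mitochondrial leucyl-tRNA synthetase, had −0.42, and mt-Rnr2, the large mitochondrial ribosomal RNA, had −0.17. The last is the smallest difference called, in a gene with 14033 and 15044 CPM in Lefty-high cells and 16247 and 16402 CPM in Lefty-low cells. None of the 13 mitochondrially encoded protein genes passed the test, and the mitochondrial share of the groups differed in opposite directions in the lines, as given above.

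For the cell cycle, 0 of 18 G2/M genes and 0 of 15 S phase genes passed, while 14 of the 18 G2/M genes had negative log2 differences, with a median of −0.11. The cyclin Ccnb1 (−0.24 ± 0.07) and Ube2c (−0.23 ± 0.07, SE) came nearest (edgeR adjusted p = 0.155 and 0.162). The median G2/M share of a cell was 0.379% in Lefty-high and 0.371% in Lefty-low cells of R1, and 0.352% and 0.421% in IB10. With terciles taken among cells of like G2/M share, 10 genes were higher and 10 lower. The part of the cell cycle in the genes lost was not tested.

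Lists of other signalling pathways held no call, with 0 of 10 WNT targets, 0 of 12 ERK targets, 0 of 10 BMP and ID genes and 0 of 14 LIF and STAT3 genes. With 0.388% of all genes called, a count of 0 in lists of this size does not set them apart from other genes, and the same holds for the lists that follow. Epithelial polarity and lumen genes had 0 calls among 15, with Epcam at log2 0.44 ± 0.20 and Cdh1 at 0.21 ± 0.10 (SE; edgeR adjusted p = 0.585 and 0.607). Glycolysis genes had 0 calls among 17, with the lactate transporter Slc16a3 at 0.69 ± 0.21 (edgeR adjusted p = 0.186). Of p53 targets, 0 of 12 passed, with Perp at 1.29 ± 0.43 and Cdkn1a at 0.33 ± 0.14 (edgeR adjusted p = 0.278 and 0.541). The amino acid stress gene Asns (−0.26 ± 0.07) and the stress genes Hspa8 (−0.14 ± 0.04) and Jund (0.35 ± 0.11, SE) did not pass (edgeR adjusted p = 0.0841, 0.194 and 0.242). Of the 15 tested markers of other states 0 passed, with 1 at an unadjusted p under 0.05. Their summed levels stayed low for mesendoderm, at 9.9 and 12.5 CPM in Lefty-high and 16.9 and 15.01 CPM in Lefty-low cells. For feeder fibroblast genes they were 307 and 273 CPM against 276 and 333 CPM. Of the feeder list, Col1a2 and Col3a1 had no count and Col1a1 was too rare to test, so the 2 tested were Thy1 and Vim.

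The same split was made in the other cultures, where different cells in different libraries were compared. In primed_4d, 82 Lefty-high and 82 Lefty-low cells differed in 43 of 10736 genes (0.401%), of which 12 were higher (0.112%) and 31 lower (0.289%). In LIF_2i, 115 Lefty-high and 114 Lefty-low cells differed in 0 genes (edgeR; 494 at an unadjusted p under 0.05). Nodal was at 138 (R1) and 78.6 CPM (IB10) in Lefty-high cells of primed_4d, against 97.9 and 61.4 CPM in Lefty-low cells (log2 0.39 ± 0.14, SE; edgeR adjusted p = 0.313). In LIF_2i it was at 92.8 and 75.0 CPM, against 75.9 and 68.3 CPM in Lefty-low cells (log2 0.19 ± 0.13; edgeR adjusted p = 1). Nodal was thus higher in Lefty-high cells of all 6 libraries, of which the 2 rosette_LIM libraries are those it was called from. The differences of Nodal in primed_4d and LIF_2i did not pass the test. In this fit over 18 profiles, 16 of 10736 genes (0.149%) were called in rosette_LIM, and the difference of Nodal did not pass there either (log2 0.56 ± 0.14; edgeR adjusted p = 0.102). Nor did that of Tdgf1 in rosette_LIM (log2 0.37 ± 0.10, edgeR adjusted p = 0.195). Levels in primed_4d and LIF_2i are before TMM scaling. Tdgf1 was higher in Lefty-high cells of R1 in primed_4d and lower in those of IB10, at 790 and 653 CPM against 484 and 694 CPM in Lefty-low cells (log2 0.25 ± 0.09; edgeR adjusted p = 0.345). The effect in rosette_LIM minus that in primed_4d was 0.17 ± 0.20 for Nodal and 0.12 ± 0.14 for Tdgf1 (SE; edgeR adjusted p = 0.923 for each).

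**Figure D5:**
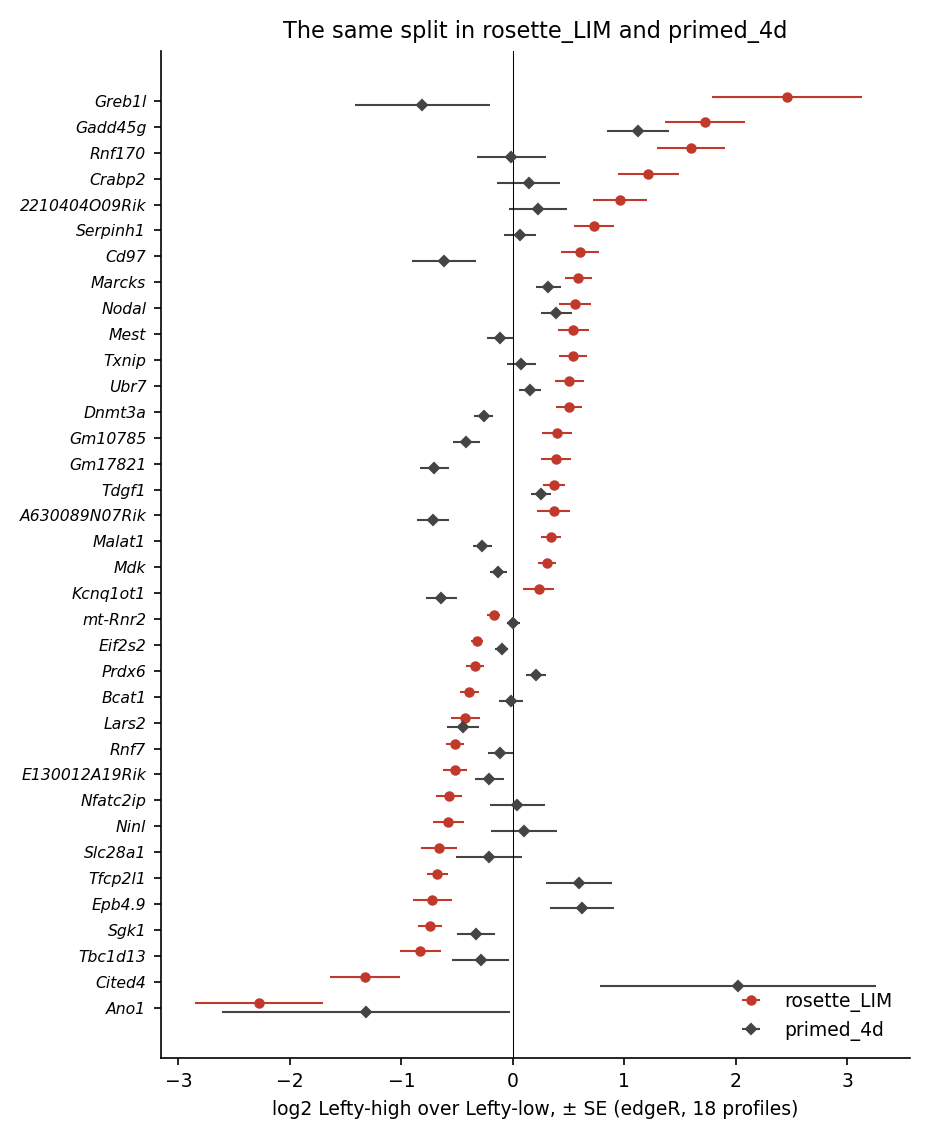
Log2 difference of Lefty-high over Lefty-low cells, with its standard error, in rosette_LIM (red circles) and primed_4d (dark diamonds) for 36 genes called in the fit over the 6 rosette_LIM profiles. The values shown are from 1 fit over 18 profiles, which called 16 of 10736 genes in rosette_LIM. The genes were chosen by their rosette_LIM values. Nodal and Tdgf1 lie to the right of 0 in both cultures, and the points of Dnmt3a and of Gm17821 lie on opposite sides of 0.

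The effect of the split was tested for a difference between cultures. Between rosette_LIM and primed_4d it differed for 23 of 10736 genes (0.214%), 19 of them (0.177%) with the higher value in rosette_LIM, and between rosette_LIM and LIF_2i for 0 genes (edgeR; 461 at an unadjusted p under 0.05). Dnmt3a was among the 23. It was lower in both Lefty-high profiles of primed_4d, at 404 and 441 CPM against 475 and 510 CPM in Lefty-low cells, so that its effect in rosette_LIM minus that in primed_4d was 0.76 ± 0.14 (SE; edgeR adjusted p = 0.00508). Tfcp2l1 had a difference of −1.27 ± 0.31 that did not pass (edgeR adjusted p = 0.0659), and in primed_4d it was at 16.4 and 17.9 CPM in Lefty-high cells and 11.8 and 10.3 CPM in Lefty-low cells. With DESeq2, and without the line as a block, 0 genes differed between rosette_LIM and primed_4d.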

How the data were processed

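Single cells of the lines R1 and IB10 were measured in 6 libraries (1 per line and culture). The deposited table holds the authors' expected count per gene and well. Its 1297 distinct values all match (tolerance 0.01) whole identifier counts corrected for identifier collisions, with 6 bases and hence 4096 identifiers, so the deposited values are counts without scaling. BWA and the build mm10/GRCm38 are named, per the submitters' processing notes. Versions, annotation and shared plates were not given in the sources used here. Columns carry well numbers, so shared cell barcodes were not counted. The table has 19532 gene rows and 91 spike-in rows, which took 1.75% of counts and were left out. Coordinates are GRCm38 positions from GENCODE M21, matched by symbol for 19233 gene rows.

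The members, gene lists and tests were chosen with earlier results of these data known. Named genes are the Nodal list members, the 12 largest rises and 12 largest falls among called genes, and up to 4 genes of smallest p in each other list; 12 further called genes, Tmem63a, Ephx1, Sde2 and H3f3a were named after their values were seen. Results for 2 called genes, both members of the Nodal lists, are not reported here; they stay in the fit and in counts over all genes, and are left out of list counts and figures. Wells with 10000 or more counts were kept; no doublet caller was run on these sorted wells. Counts were summed per library and tercile, rounded to whole numbers and tested with edgeR 4.0.16 in R 4.3.3 (quasi-likelihood, TMM, filterByExpr with a minimum count of 10, two-sided, Benjamini-Hochberg adjustment, threshold 0.05). Lefty1 and Lefty2 were left out of tests and library sizes. The 6 profiles (3 terciles in 2 lines) were fitted with tercile and line; terciles of 1 line are paired, since they come from the same library. The common dispersion was 0.00236 (coefficient of variation 0.0486). The comparison of cultures used 18 profiles. The test was also tried on simulated data, built after the main fit from the means of the 6 profiles and the fitted dispersion. Levels are CPM; log2 differences are ± SE. An exact permutation test over 2 libraries cannot pass the threshold and was not run. Alternatives were DESeq2 1.42.0, limma 3.58.1 (equal weight per cell on log2(CPM + 5), and voom), no TMM factors, no filter, no line block, only the upper and lower terciles, a linear trend over terciles, other splits of the ranking, other depth minimums (20000 and 6000), wells over 3 times the median depth left out, cells thinned to 10000 counts, terciles within bins of depth, G2/M, chromosome 8 or mitochondrial share, and each line alone. Voom, the chromosome 8 and mitochondrial bins and thinning with the groups kept were chosen after seeing the data.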

Additional observations from a re-analysis of the deposited data

Results flagged for a closer look

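For 9 genes of the lists and calls described above, the effect of the Lefty split differed between rosette_LIM and primed_4d in a test of the difference itself (edgeR, adjusted p under 0.05). The values here are the rosette_LIM effect minus the primed_4d effect on the log2 scale. Dnmt3a had 0.76, and in primed_4d both lines had the same order of groups. Prdx6 had −0.54: in primed_4d it was at 263 and 303 CPM in Lefty-high cells, against 242 and 236 CPM in Lefty-low cells. Manba had 2.24, of which the primed_4d effect rested on IB10, at 22.5 CPM in Lefty-high and 71.8 CPM in Lefty-low cells, against 10.1 and 10.5 CPM in R1. Inhbb had 6.43, which is no measure of size because primed_4d held 0 and 0 counts in Lefty-high cells and 1 and 16 counts in Lefty-low cells. In rosette_LIM, Inhbb was at 21.3 and 23.8 CPM in Lefty-high cells, against 21.5 and 22.5 CPM in Lefty-low cells.

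The other 5 are the transcripts described together above, with values of 1.09 for Gm17821, 1.08 for A630089N07Rik, 0.87 for Kcnq1ot1, 0.81 for Gm10785 and 0.62 for Malat1. In primed_4d all 5 were lower in Lefty-high cells of R1, while in IB10 Malat1 was lower too, at 1058 CPM in Lefty-high and 1132 CPM in Lefty-low cells, and the other 4 were higher. Gm17821 was at 1014 CPM in Lefty-high and 2483 CPM in Lefty-low cells of R1, against 1758 and 1709 CPM in IB10. Kcnq1ot1 was at 1335 and 3161 CPM in R1, against 1837 and 1639 CPM in IB10. The cause was not tested.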

How the results depend on the processing

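The 36 called genes described here kept their direction under all 21 alternatives that gave them a value, and in each line alone. The alternatives largely reuse the cells from which these genes were called, so a kept direction is no separate support. The share of all tested genes that kept their direction was not taken. Leaving out wells over 3 times the median depth removed no rosette_LIM cell and so repeated the main fit. How many passed varied: single genes were called in 3 (Ubr7) to 18 (Sgk1 and Eif2s2) alternatives. Against 22 genes higher and 16 lower, DESeq2 called 0 and 0, and the fit without the line as a block (no replicate block) 0 and 0. Thinning the cells to 10000 counts left 2 higher and 6 lower (3 and 5 with the groups kept), and cells with 20000 or more counts 4 and 4. A split at the median called 4 and 4, the split by Lefty1 alone 3 and 9, by Lefty2 alone 9 and 2, and terciles within G2/M bins 10 and 10. Equal weight per cell gave 10 lower, quintiles 29 lower, and bins of chromosome 8 or mitochondrial share 33 and 32 lower. All other counts stayed within 1.5 times. No test was possible in a line alone, which leaves 1 profile per tercile.

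Lefty2 between groups split by Lefty1 ranged from 1.62 to 2.31 and Lefty1 between groups split by Lefty2 from 2.26 to 2.39 (log2) when 1 line was left out, and both kept their calls under thinning, depth bins, DESeq2 and no replicate block. Genes whose effect differed between rosette_LIM and primed_4d numbered 23, against 0 with DESeq2 (142 at an unadjusted p under 0.05), 0 with no replicate block and 3 with thinned cells. Among uncalled neighbours of the locus, Ephx1 ranged from −0.037 to 0.972 when 1 line was left out, Sde2 reversed to −0.115 in the split by Lefty2 and −0.0854 with quintiles, and H3f3a to −0.0021 in the split by Lefty2. Of the 28 Nodal list members that were not called, 19 changed sign under some alternative. The cause was not tested. With 1649231 to 1986477 counts per profile, genes of a few CPM, such as Greb1l and Ano1, rest on few counts.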
